A study of Mus musculus with 8 samples.

Results

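RNA splicing and RNA-binding protein genes were followed in cultured mouse hippocampal neural stem and progenitor cells, first in the proliferating state and then after growth factors were taken away. The set held 150 of the 9140 genes in the expression matrix. Its members were picked by symbol alone, as protein-coding genes outside the Y chromosome whose names start with Srsf, Tra2, Luc7l, Snrp, Sf3a, Sf3b, Prpf, U2af, Hnrnp, Celf, Elavl, Mbnl, Nova, Ptbp, Khdrbs or Rbfox, or with Ddx, Dhx or Rbm and a digit, or are Son, Qk, Msi1 or Msi2. Rbfox3, whose product is the NeuN antigen of mature neurons, was left out. The rule uses no measured value. The genes lay on 20 chromosomes. They were described in 7 groups by role, with 31 genes of the spliceosome core, 14 SR and SR-like proteins, 19 hnRNP proteins, 26 DEAD-box and 13 DEAH-box helicases, 29 proteins of the RBM series and 18 tissue-restricted regulators.

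The cells came from littermate mouse embryos of C57BL/6J females crossed with Kmt2d+/βgeo males, in which the dentate gyrus was microdissected at embryonic day 18 according to the sample labels, whereas the study's methods name an earlier embryonic day. Kmt2d+/βgeo cells carry 1 copy of the Mll2Gt(RRt024)Byg gene-trap allele of Kmt2d, a histone H3 lysine methyltransferase gene, in every cell of the embryo, and the wild-type cells are labelled C57BL/6J. Both were grown with EGF and FGF2 and collected undifferentiated on day 0, or 2, 4 and 8 days after the growth factors were removed. Each combination of genotype and day gave a single library from polyadenylated RNA, made with the Chromium 3′ chemistry, for 8 libraries and 30408 cells. A genotype difference, a difference between cultures or embryos and a difference between libraries therefore cannot be told apart, and no test between groups was made. In the titles the 4 libraries of a genotype share a sample number, which differs between the genotypes, so the days of a genotype may not be independent cultures. The spread between replicates is unknown throughout, and intervals given below cover counting error only.

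Splicing removes introns from pre-mRNA in the spliceosome, a machine of small nuclear RNAs, the Sm and other proteins bound to them and a large set of auxiliary factors. The SF3 complex and U2AF recognise the branch point and the 3′ splice site, and PRPF proteins and DEAD-box and DEAH-box ATPases drive the rearrangements that activate the machine and take it apart. SR proteins mostly promote the use of exons and hnRNP proteins mostly repress it. In the brain, a handover from PTBP1 to PTBP2 and the onset of NOVA, CELF, MBNL, ELAVL and RBFOX proteins set the neuronal pattern of splicing, and Musashi proteins mark neural progenitors and astrocytes.

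Values are given as normalised counts per cell, the number of unique molecular identifiers (UMIs, each marking 1 captured RNA molecule) after scaling every cell to the same total of 8707.14 over the matrix genes. A library's level of a gene is the mean over its cells. Since each RNA molecule yields 1 tag at its 3′ end, levels were not divided by length. Groups were compared by the log2 ratio of these means, for genes with a mean of at least 0.1 in either library, and genes were counted at a log2 ratio of at least 1 in size (a 2-fold difference) or at least 0.5 (1.41-fold). Cell numbers ran from 2534 to 4900 per library, and median depth on the matrix genes from 3972 UMIs per cell in the Kmt2d+/βgeo day 8 library to 11230 in the Kmt2d+/βgeo day 0 library. The day 8 Kmt2d+/βgeo library was the shallowest by far, so results that rest on it are given beside the wild-type value. The day 4 pair differed less than any other pair, since 0 of 7459 genes passed a log2 ratio of 1 between the genotypes there, although at most 10 cell barcodes were shared by any 2 libraries. No value here checks whether the genotype labels of the day 4 pair are right, so they are in doubt, as are the day 4 levels given by genotype. The Kmt2d transcript had log2 ratios of 0.30, -0.21, 0.32 and 0.27 between the genotypes on days 0, 2, 4 and 8, but tags from the 3′ end of a trapped gene need not report the altered copy and check no label. Cells with a Top2a UMI, a marker of dividing cells, made up, after thinning each cell to 3000 UMIs, 37.7% and 34.0% of day 0 cells and between 1.00% and 2.16% of cells on later days. Of the marker lists used to look for cell types, the progenitor list had 5 of 9 genes in the matrix with a summed level of 60.5 to 129 per library, the neuron list 3 of 9 with 3.07 to 4.46, the astrocyte list 5 of 8 with 8.20 to 252, the dividing-cell list 4 of 7 with 0.973 to 8.56, and the oligodendrocyte list only Olig2 with 0.911 to 8.09. No microglial, endothelial or fibroblast marker was among the genes analysed here. Apoe, which made up most of the astrocyte sum, went from 14.1 and 5.88 on day 0 to 94.7 and 230 on day 8, so these levels moved with time in both genotypes, and their part in the differences over time below was not tested.

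Most of these genes were well expressed. Their mean levels over the 8 libraries ran from 0.0278 to 9.52 normalised counts with a median of 0.731, against 0.300 over all genes, and 76 of the 150 ranked above the 75th percentile of matrix genes. The 10 highest were Qk, Hnrnpk, Ddx5, Snrpe, Snrpg, Hnrnpa1, Son, Hnrnpa3, Hnrnpf and Hnrnpa2b1, which serve as an RNA-binding regulator of glial transcripts (Qk), a helicase and transcription cofactor (Ddx5), Sm ring subunits (Snrpe, Snrpg), a nuclear speckle scaffold (Son) and hnRNP proteins. Ddx31, Rbm41, Celf4 and Elavl3 stayed below 0.1 in every library and entered no comparison between libraries. Together the members took 2.81%, 1.88%, 2.13% and 1.73% of all normalised counts on days 0, 2, 4 and 8 in Kmt2d+/βgeo, and 2.64%, 1.97%, 2.10% and 1.84% in wild type. The share was thus highest on day 0 in both genotypes. The authors' quantification splits reads that fit several genes, so a gene's UMIs can be fractional. In 40 members under 80% of the nonzero values were whole UMIs (within 0.01), and in 9 under 50%, among them Qk with 17.0%, Hnrnpa3 with 34.4%, Rbm3 with 37.9% and Rbm42 with 30.9%, whose levels are therefore less certain.

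On day 2 after growth-factor removal the members stood lower than on day 0 far more often than higher. In Kmt2d+/βgeo, 20 of 142 compared members were lower by a log2 ratio of at least 1 and 2 were higher, where 6.74% and 10.7% of all genes were. In wild type it was 14 and 2 of 143, against 5.56% and 8.08% of all genes. At the smaller threshold of 0.5, 57 members were lower and 7 higher in Kmt2d+/βgeo (19% and 25.4% of all genes), and 50 and 5 in wild type (18.3% and 20.7%). The median member had a log2 ratio of -0.44 in Kmt2d+/βgeo and -0.38 in wild type, while the median over all genes was 0.05 and 0.01. The 13 members that passed a log2 ratio of -1 in both genotypes, of 142 compared in both and against 4.44% of all genes, were Srsf2, Srsf3, Srsf7, Snrpa1, Snrpd1, Sf3b3, Hnrnpa3, Hnrnpab, Hnrnpd, Hnrnpdl, Ddx21, Ddx46 and Rbm3. Only Dhx32 and Msi1 passed 1 in the other direction in both, against 6.52% of all genes. At 0.5 it was 43 lower (14.5% of all genes) and 4 higher (17.7%). Among cells with no Top2a UMI after thinning, the member medians were -0.38 in Kmt2d+/βgeo and -0.31 in wild type (all genes 0.06 and 0.01). Thinning can remove the Top2a UMIs of a cell, and the part of dividing cells in the shift was not tested.

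On day 8 the set was again lower than on day 0. In Kmt2d+/βgeo 43 of 144 members passed -1 and 4 passed 1 (13.9% and 19% of all genes), and in wild type 18 and 4 of 144 (10.9% and 16.3%). The median member stood at -0.63 and -0.43, against 0.11 and 0.04 over all genes. The Kmt2d+/βgeo value relative to the all-gene median, which itself had moved by 0.11, was -0.73. At 0.5, 82 members were lower and 12 higher in Kmt2d+/βgeo (27.1% and 34.8%), and 63 and 11 in wild type (25.1% and 30.6%). Every cell was also thinned to 3000 UMIs, which kept 2200 of 2965 cells of the shallow Kmt2d+/βgeo library. At 0.5, 85 of 144 members were then lower in Kmt2d+/βgeo and 8 higher, against 28.2% and 33.3% of all genes. In both genotypes 14 of 142 members were lower by at least 1, close to the 8.02% of all genes, and 57 by at least 0.5 (19.5%). The members that were higher by at least 1 in both were Dhx32, Dhx35 and Msi1 (13.2% of all genes), and at 0.5 there were 8 (25.5%). The plot of members by role shows how these ratios are spread.

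**Figure D1:**
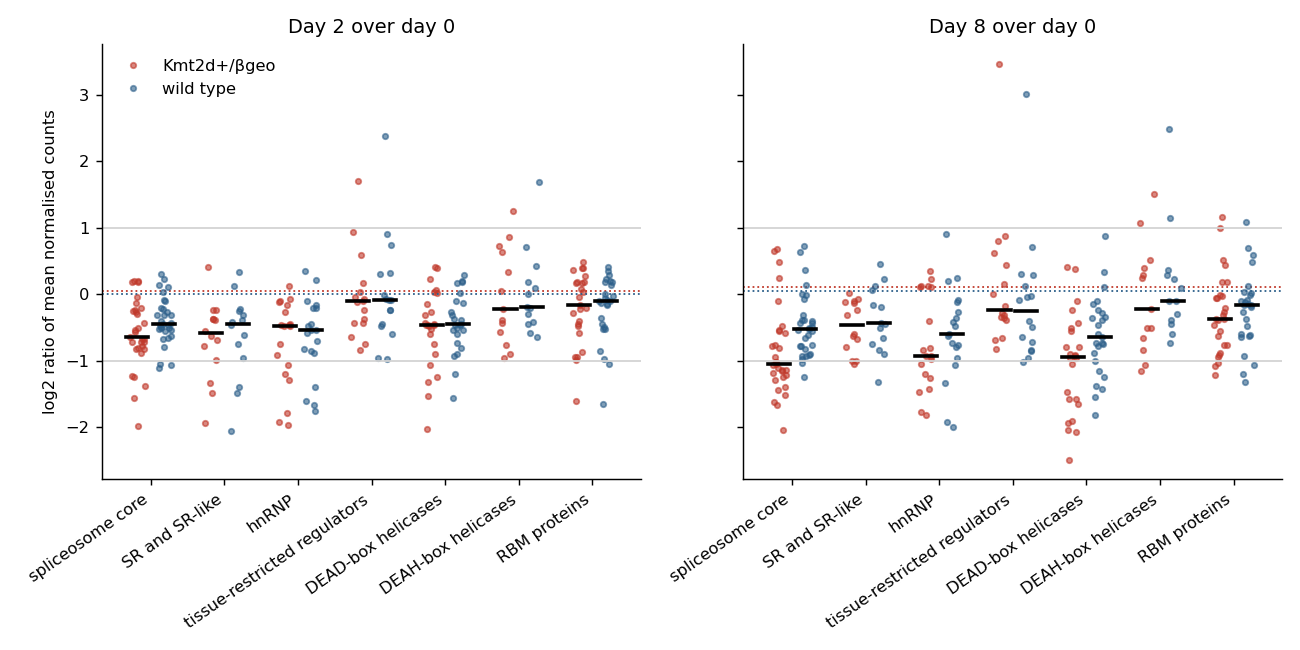
Log2 ratio of mean normalised counts against day 0 for each member, by role, on day 2 and day 8 in Kmt2d+/βgeo and wild type; points are genes, black bars role medians, dotted lines the median of all genes and grey lines a log2 ratio of 1 in either direction. On day 2 the medians of the core, SR, hnRNP and DEAD-box groups lie between -0.64 and -0.44, while those of the tissue-restricted, DEAH-box and RBM groups lie between -0.23 and -0.09.

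SR proteins bind exonic enhancers through an RNA recognition motif and recruit the spliceosome through their arginine-serine tails, and several of them regulate their own mRNA. All 8 Srsf genes had a log2 ratio below 0 on day 2 in both genotypes, with a median of -0.74 in Kmt2d+/βgeo and -0.68 in wild type. The medians of all genes there were 0.05 and 0.01. The 14 SR and SR-like genes, which also include Tra2, Luc7l and Son, had a median of -0.59 in Kmt2d+/βgeo and -0.44 in wild type. Srsf2, Srsf3 and Srsf7 were the members of this group that stood lowest, and the sequences just upstream of their starts are shown because these 3 genes moved together. They are the 250 bases before the RefSeq start on GRCm38.p6, at chr11:116853095-116853344 on the minus strand for Srsf2, chr17:29032410-29032659 on the plus strand for Srsf3 and chr17:80207306-80207555 on the minus strand for Srsf7, written 5′ to 3′ in the direction of the gene. Capitals mark matches on either strand to TATAAA (the TATA box), CCAAT (the CCAAT box), GGGCGG (a GC box) and CCGGAAG (an ETS site), where neighbouring GC boxes in Srsf2 overlap.
Srsf2: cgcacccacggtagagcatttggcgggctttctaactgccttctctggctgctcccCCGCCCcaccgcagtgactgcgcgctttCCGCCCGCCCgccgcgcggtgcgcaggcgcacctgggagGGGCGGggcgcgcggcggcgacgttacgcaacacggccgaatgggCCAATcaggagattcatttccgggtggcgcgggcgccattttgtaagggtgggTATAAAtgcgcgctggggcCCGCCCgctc
Srsf3: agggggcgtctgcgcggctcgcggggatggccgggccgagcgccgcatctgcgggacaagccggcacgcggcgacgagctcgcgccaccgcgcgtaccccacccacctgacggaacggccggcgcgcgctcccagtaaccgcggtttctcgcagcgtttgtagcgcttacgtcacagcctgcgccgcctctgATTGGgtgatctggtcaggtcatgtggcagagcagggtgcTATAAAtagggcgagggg
Srsf7: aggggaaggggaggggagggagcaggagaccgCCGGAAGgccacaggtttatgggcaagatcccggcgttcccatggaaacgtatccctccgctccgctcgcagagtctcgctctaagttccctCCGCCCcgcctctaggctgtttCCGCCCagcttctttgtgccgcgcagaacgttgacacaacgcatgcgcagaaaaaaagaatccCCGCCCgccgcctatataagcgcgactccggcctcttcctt
The Srsf2 and Srsf3 windows each hold the TATA and CCAAT sequences as spelled above, which were not found in the Srsf7 window, and that of Srsf7 holds the ETS sequence. Variants of these motifs were not searched. GC content was 69.6%, 69.6% and 61.6%, with 33, 35 and 23 CpG dinucleotides. In all, 127 members had 168 such windows in the RefSeq table and 23 members had none. The share of windows with each sequence among members, among 9209 windows of coding genes in the matrix and among all 32851 windows was 10.7%, 5.97% and 12.4% for TATAAA, 45.2%, 34.8% and 33.8% for CCAAT, 55.4%, 59.2% and 32.7% for GGGCGG, and 23.8%, 13.9% and 6.91% for CCGGAAG. A further motif, the CRE core TGACG, stood in 38.7%, 27.3% and 17.8%. The median GC content of the windows was 59.6%, 60.4% and 52.4%. These matches are letters found in a window and no evidence of binding.

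Srsf3, which promotes exon inclusion and mRNA export, averaged 7.27, 1.89, 3.54 and 4.20 in the Kmt2d+/βgeo libraries and 5.64, 1.36, 3.77 and 3.37 in the wild-type libraries on days 0, 2, 4 and 8 (this order of days is kept below). Its lowest library was day 2 in both genotypes, with log2 ratios of -1.94 in Kmt2d+/βgeo and -2.05 in wild type and pooled-UMI ratios of -2.04 (-2.07 to -2.01) and -2.17 (-2.21 to -2.13) with their 95% counting intervals. Days 4 and 8 lay between, so its level came part of the way back. Srsf2, a general splicing activator, had 4.27, 1.68, 1.92 and 2.13 in the Kmt2d+/βgeo libraries and 3.93, 1.40, 1.94 and 1.57 in the wild-type libraries. Every library after day 0 was below both day 0 libraries, with log2 ratios of -1.34 in Kmt2d+/βgeo and -1.48 in wild type on day 2 and -1.01 in Kmt2d+/βgeo and -1.32 in wild type on day 8. It shares its locus with Mfsd11 and Mettl23, whose levels ran from 0.292 to 0.483 and from 0.739 to 1.02. Srsf7, which couples splicing to 3′-end choice, had 3.39, 1.21, 1.55 and 1.64 in the Kmt2d+/βgeo libraries and 2.38, 0.902, 1.46 and 1.68 in the wild-type libraries. Day 2 was again the lowest of the 4 days in each genotype, at -1.49 in Kmt2d+/βgeo and -1.40 in wild type. From day 2 to day 8 the 8 Srsf genes had a median of 0.39 in Kmt2d+/βgeo and 0.34 in wild type, where all genes had 0.05 and 0.03.

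**Figure D2:**
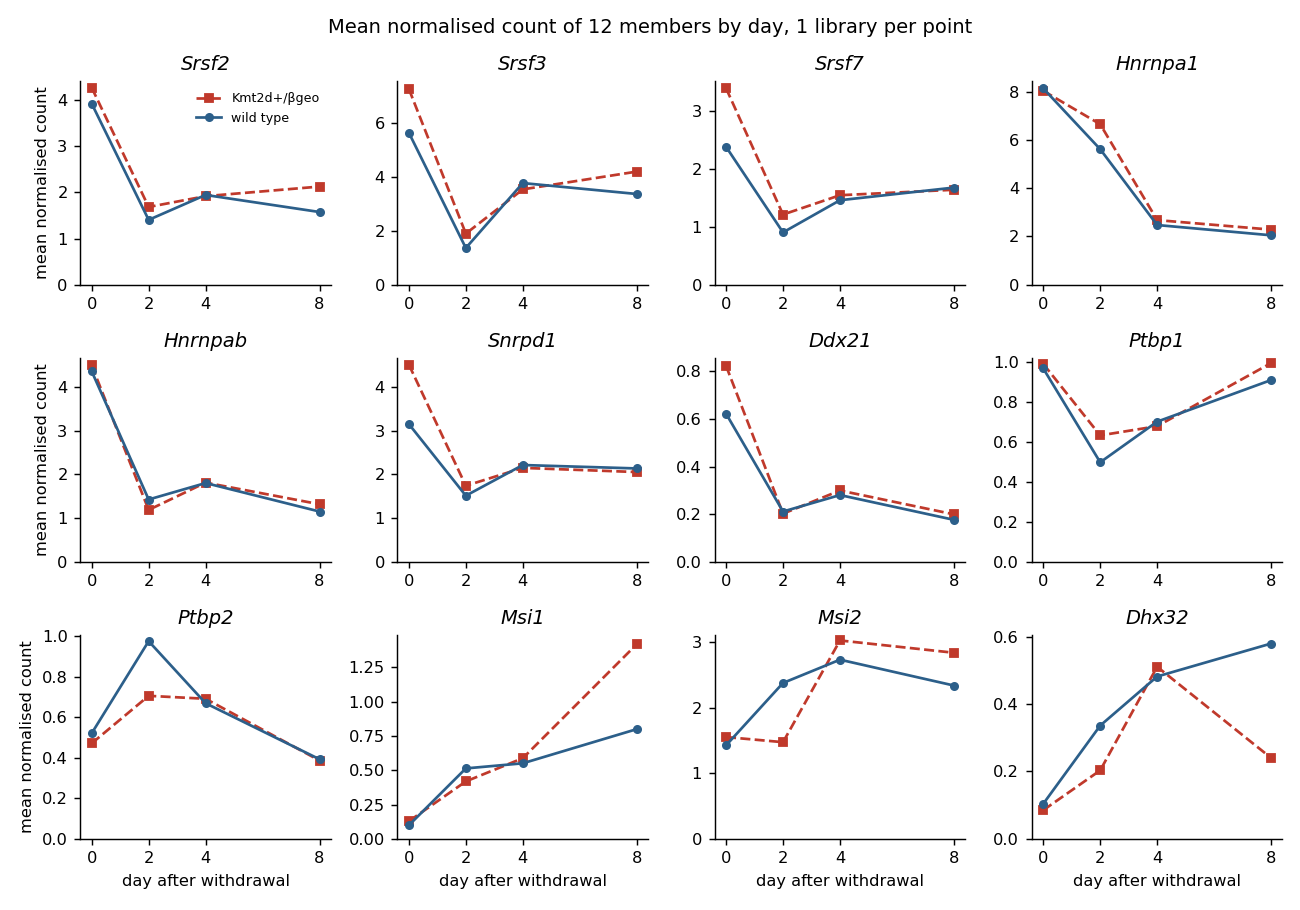
Mean normalised count per cell (y axis) on days 0, 2, 4 and 8 (x axis) of 12 members in the Kmt2d+/βgeo and wild-type libraries, 1 point per library. Srsf3 stands at 1.89 and 1.36 on day 2 and is higher on days 4 and 8, Hnrnpa1 is lowest on days 4 and 8, and Msi1 and Dhx32 are lowest on day 0.

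The rest of the group moved less. Srsf1, the archetypal SR protein, stood at -0.69 in Kmt2d+/βgeo and -0.61 in wild type on day 2, and Srsf10, which acts as a repressor when dephosphorylated, at -0.78 in Kmt2d+/βgeo and -0.46 in wild type. Srsf5 was nearly level in the Kmt2d+/βgeo libraries, with 3.10, 2.62, 3.15 and 2.62. In the wild-type libraries it had 2.67, 2.15, 3.07 and 3.13, higher on days 4 and 8 than on day 2. Son, the speckle scaffold that supports splicing of cell-cycle transcripts, had 4.06, 3.12, 5.74 and 3.79 in the Kmt2d+/βgeo libraries and 3.42, 4.31, 6.46 and 4.69 in the wild-type libraries, so its highest library was day 4 in both genotypes and its day 2 ratio took opposite signs, -0.38 in Kmt2d+/βgeo and 0.33 in wild type. Of the Tra2 pair of sequence-specific activators, Tra2b was lower on day 2, at -0.99 in Kmt2d+/βgeo and -0.96 in wild type, and Tra2a was not, at 0.42 in Kmt2d+/βgeo and 0.12 in wild type. Luc7l2 and Luc7l3, U1 snRNP-associated proteins, stood at -0.24 in Kmt2d+/βgeo and -0.25 in wild type on day 2 for Luc7l2 and -0.39 in Kmt2d+/βgeo and -0.38 in wild type for Luc7l3.

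The 31 spliceosome core genes were lower as a group on both days. Their median log2 ratio was -0.64 in Kmt2d+/βgeo and -0.45 in wild type on day 2 and -1.05 in Kmt2d+/βgeo and -0.52 in wild type on day 8. On day 8, 18 of 31 passed -1 in Kmt2d+/βgeo and 2 in wild type, against 13.9% and 10.9% of all genes. At -0.5 it was 25 and 17 of 31, against 27.1% and 25.1%, so at the smaller threshold the share exceeded that of all genes in both genotypes. The 11 Snrp genes, which encode Sm ring and snRNP-specific proteins, had a median of -0.72 in Kmt2d+/βgeo and -0.49 in wild type on day 2. Snrpd1, an Sm ring subunit, averaged 4.52, 1.74, 2.15 and 2.06 in the Kmt2d+/βgeo libraries and 3.16, 1.51, 2.22 and 2.14 in the wild-type libraries. Both day 0 libraries were above the other 6, with ratios of -1.38 in Kmt2d+/βgeo and -1.06 in wild type on day 2. The ring subunits Snrpf and Snrpg were lower on day 2, at -1.98 in Kmt2d+/βgeo and -0.55 in wild type for Snrpf and -1.56 in Kmt2d+/βgeo and -0.49 in wild type for Snrpg, so the genotypes differed in size there. Snrpf averaged 3.64, 0.926, 1.51 and 2.49 in the Kmt2d+/βgeo libraries and 2.76, 1.88, 1.73 and 1.44 in the wild-type libraries. Snrpg had 9.28, 3.14, 4.25 and 5.45 in the Kmt2d+/βgeo libraries and 7.35, 5.25, 5.65 and 3.85 in the wild-type libraries. In Kmt2d+/βgeo both were lowest on day 2 and higher on days 4 and 8, whereas in wild type both were lowest on day 8.

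Sf3a3, a subunit of the SF3a complex that joins U2 snRNP to the branch point, averaged 0.942, 0.591, 0.547 and 0.230 in the Kmt2d+/βgeo libraries and 0.724, 0.524, 0.545 and 0.386 in the wild-type libraries. It was lowest on day 8 in both genotypes, at -2.04 in Kmt2d+/βgeo and -0.91 in wild type. Sf3b3, a scaffold of SF3b, was lower, at -1.22 in Kmt2d+/βgeo and -1.10 in wild type on day 2. U2af2, the large U2AF subunit that binds the polypyrimidine tract, stood at -0.81 in Kmt2d+/βgeo and -0.79 in wild type on day 2 and -0.55 in Kmt2d+/βgeo and -0.66 in wild type on day 8. U2af1, its partner at the 3′ splice site, was lower on day 8, at -1.21 in Kmt2d+/βgeo and -0.49 in wild type. Prpf8, at the heart of the catalytic core, showed -0.81 in Kmt2d+/βgeo and -0.01 in wild type on day 8, a difference seen in the shallow library only. Prpf38b was lower by at least 1 in both genotypes on day 8, at -1.03 in Kmt2d+/βgeo and -1.03 in wild type. Not all core genes were lower. Sf3b6, the SF3b subunit at the branch point adenosine, averaged 3.18, 2.92, 3.92 and 5.08 in the Kmt2d+/βgeo libraries and 2.68, 2.73, 3.96 and 4.43 in the wild-type libraries, with its 4 highest libraries on days 4 and 8, and Snrpn, a neuronal Sm protein, stood at 0.66 in Kmt2d+/βgeo and 0.64 in wild type on day 8.

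The 19 hnRNP genes had medians of -0.47 in Kmt2d+/βgeo and -0.54 in wild type on day 2 and -0.93 in Kmt2d+/βgeo and -0.60 in wild type on day 8. Hnrnpab, a regulator of mRNA transport and translation, averaged 4.49, 1.19, 1.81 and 1.32 in the Kmt2d+/βgeo libraries and 4.36, 1.42, 1.80 and 1.15 in the wild-type libraries. The 2 day 0 libraries stood far above the 6 later ones, with ratios of -1.92 in Kmt2d+/βgeo and -1.61 in wild type on day 2 and -1.77 in Kmt2d+/βgeo and -1.92 in wild type on day 8. Hnrnpd, also called AUF1 and involved in the decay of AU-rich mRNAs, had 3.37, 0.972, 1.74 and 1.25 in the Kmt2d+/βgeo libraries and 3.23, 1.01, 1.64 and 1.55 in the wild-type libraries. It too was lower in all later libraries, at -1.79 in Kmt2d+/βgeo and -1.67 in wild type on day 2. Hnrnpa3, which binds RNA much as Hnrnpa1 does, had 8.99, 2.30, 3.86 and 3.75 in the Kmt2d+/βgeo libraries and 6.87, 2.03, 3.77 and 3.97 in the wild-type libraries, with the share of whole UMIs given above. Day 2 was the lowest day in both genotypes.

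Hnrnpa1, the classical antagonist of SR proteins at splice sites, followed another course from its relatives. It averaged 8.04, 6.65, 2.68 and 2.28 in the Kmt2d+/βgeo libraries and 8.14, 5.62, 2.47 and 2.05 in the wild-type libraries. Its day 2 ratio was -0.27 in Kmt2d+/βgeo and -0.54 in wild type, and the larger step came between days 2 and 4, at -1.31 in Kmt2d+/βgeo and -1.18 in wild type. It was the only member past -1 from day 2 to day 4 in both genotypes, where 1.53% of all genes were. Hnrnpa2b1, its nearest paralogue here, had 5.82, 2.54, 4.30 and 3.05 in the Kmt2d+/βgeo libraries and 5.28, 2.92, 3.91 and 3.94 in the wild-type libraries, lowest on day 2. The log2 balance of Hnrnpa1 over Hnrnpa2b1 was therefore 0.47, 1.39, -0.69 and -0.42 in Kmt2d+/βgeo and 0.62, 0.94, -0.66 and -0.94 in wild type, highest on day 2 and below 0 on days 4 and 8. Only 70.6% of Hnrnpa1 values were whole UMIs, so its level is less certain.

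Several hnRNP genes stood lower on day 8 than on day 2 in both genotypes. Others stood higher in both, among them Hnrnpa2b1, Hnrnpa3, Hnrnpd, Hnrnph3 and Hnrnpl. Hnrnph3 went from 0.728 and 0.729 on day 2 to 0.852 and 1.08 on day 8 in Kmt2d+/βgeo and wild type. Hnrnpk, a poly(C)-binding protein, averaged 7.33, 6.99, 5.87 and 3.73 in the Kmt2d+/βgeo libraries and 8.52, 7.63, 5.69 and 4.99 in the wild-type libraries, with ratios of -0.07 in Kmt2d+/βgeo and -0.16 in wild type on day 2 and -0.97 in Kmt2d+/βgeo and -0.77 in wild type on day 8. Hnrnpu, a scaffold attachment factor, was lower, at -1.47 in Kmt2d+/βgeo and -1.34 in wild type on day 8. It overlaps Cox20, whose day 8 levels of 1.61 and 1.46 were above its day 0 levels of 1.25 and 1.07. Hnrnpf, which binds G-rich tracts, had 6.42, 3.83, 3.81 and 3.09 in the Kmt2d+/βgeo libraries and 5.87, 3.90, 3.59 and 3.79 in the wild-type libraries, with the 2 day 0 libraries on top. Hnrnpc, which keeps cryptic exons out of mRNA, was nearly level except in the shallow library, at 3.32, 3.61, 3.24 and 1.74 in the Kmt2d+/βgeo libraries and 3.23, 3.76, 3.06 and 2.97 in the wild-type libraries.

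DEAD-box proteins unwind short RNA duplexes or displace proteins from RNA. The 26 genes had medians of -0.46 in Kmt2d+/βgeo and -0.45 in wild type on day 2 and -0.95 in Kmt2d+/βgeo and -0.64 in wild type on day 8, over 24 to 25 compared genes. The 5 lowest on day 8, with the genotypes averaged, were Ddx18, Ddx21, Ddx27, Ddx56 and Ddx10. Ddx21, a nucleolar helicase in rRNA transcription and processing, averaged 0.824, 0.202, 0.299 and 0.199 in the Kmt2d+/βgeo libraries and 0.623, 0.211, 0.280 and 0.176 in the wild-type libraries. Both day 0 libraries exceeded the other 6 by more than 2-fold, with pooled-UMI log2 ratios of -2.03 (-2.13 to -1.93) and -1.58 (-1.69 to -1.47) on day 2. Ddx18, another ribosome assembly factor, had 0.935, 0.322, 0.365 and 0.166 in the Kmt2d+/βgeo libraries and 0.732, 0.385, 0.412 and 0.251 in the wild-type libraries. Its day 8 libraries were the lowest of each genotype, at -2.49 in Kmt2d+/βgeo and -1.54 in wild type. Ddx27, Ddx56 and Ddx10, which act in the maturation of ribosomal subunits, were lower on day 8, at -2.08 in Kmt2d+/βgeo and -1.42 in wild type for Ddx27, -1.90 in Kmt2d+/βgeo and -1.15 in wild type for Ddx56 and -1.58 in Kmt2d+/βgeo and -1.38 in wild type for Ddx10. On day 2 the ratio was already -1.54 in Kmt2d+/βgeo and -0.93 in wild type for Ddx18 and -0.90 in Kmt2d+/βgeo and -0.82 in wild type for Ddx27. In total 10 of 24 DEAD-box genes in Kmt2d+/βgeo and 7 of 25 in wild type passed -1 on day 8 (13.9% and 10.9% of all genes), and 0 passed 1 (19% and 16.3%).

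Other DEAD-box genes act in splicing itself. Ddx46, the yeast Prp5 counterpart that proofreads the branch point, stood at -1.32 in Kmt2d+/βgeo and -1.20 in wild type on day 2, and Ddx39b, or UAP56, which loads U2AF and the export machinery, averaged 3.32, 2.99, 2.53 and 0.866 in the Kmt2d+/βgeo libraries and 3.08, 2.37, 2.55 and 1.54 in the wild-type libraries. Ddx39b changed less until day 4 and was lowest on day 8 in both genotypes. Ddx5, the most abundant helicase, had 8.07, 4.82, 6.76 and 4.24 in the Kmt2d+/βgeo libraries and 7.50, 5.41, 6.50 and 6.16 in the wild-type libraries. Its day 0 libraries were highest and the ratios on day 8 were -0.93 in Kmt2d+/βgeo and -0.28 in wild type. Ddx6, a translational repressor of P-bodies, went the other way, with 1.34, 1.37, 2.04 and 1.76 in the Kmt2d+/βgeo libraries and 1.46, 1.48, 1.93 and 1.84 in the wild-type libraries, its 4 highest libraries being those of days 4 and 8.

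The 13 DEAH-box genes, which include the ATPases that release and recycle the spliceosome, were the group with the smallest shift among those above, with medians of -0.23 in Kmt2d+/βgeo and -0.20 in wild type on day 2 and -0.22 in Kmt2d+/βgeo and -0.10 in wild type on day 8. Dhx15, the disassembly factor, stood at -0.90 in Kmt2d+/βgeo and -0.65 in wild type on day 2, and Dhx9, a helicase of double-stranded RNA, at -0.95 in Kmt2d+/βgeo and -0.58 in wild type. Dhx32, a family member of unsettled function, averaged 0.0849, 0.203, 0.511 and 0.240 in the Kmt2d+/βgeo libraries and 0.104, 0.336, 0.482 and 0.580 in the wild-type libraries. Both day 0 libraries were the lowest of their genotype, with pooled-UMI log2 ratios of 1.51 (1.30 to 1.71) in Kmt2d+/βgeo and 2.52 (2.38 to 2.65) in wild type on day 8. Its locus runs over Bccip, which varied between 0.417 and 0.595 without a day pattern of that size, and over Fank1, which was not analysed here. The sources used here do not state whether counting used strand, so reads of overlapping genes cannot be told apart. Dhx35, a spliceosome-associated helicase, was higher on day 8, at 1.08 in Kmt2d+/βgeo and 1.15 in wild type, with 0.0874, 0.144, 0.235 and 0.185 in the Kmt2d+/βgeo libraries and 0.108, 0.177, 0.221 and 0.240 in the wild-type libraries. Dhx40 was highest on day 2, at 0.87 in Kmt2d+/βgeo and 0.42 in wild type. The upstream window of Dhx32, at chr7:133782786-133783035 on the minus strand of GRCm38.p6, is shown as the counterpart of the Srsf windows, since this gene moved in the opposite direction.
Dhx32: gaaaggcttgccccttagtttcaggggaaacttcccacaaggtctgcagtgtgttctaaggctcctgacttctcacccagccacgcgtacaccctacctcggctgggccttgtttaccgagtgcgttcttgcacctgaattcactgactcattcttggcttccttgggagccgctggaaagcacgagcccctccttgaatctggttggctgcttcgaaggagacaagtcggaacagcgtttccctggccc
It held 0 matches to the TATA box, CCAAT box, GC box or ETS sequences, with 56.0% GC and 10 CpG dinucleotides.

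The 29 RBM genes are a mixed series named for their RNA-binding motif. Their medians were -0.16 in Kmt2d+/βgeo and -0.11 in wild type on day 2 and -0.37 in Kmt2d+/βgeo and -0.16 in wild type on day 8, over 25 to 27 genes. Rbm3, the cold-inducible protein, averaged 2.27, 0.746, 0.567 and 1.18 in the Kmt2d+/βgeo libraries and 2.14, 0.676, 0.575 and 1.02 in the wild-type libraries. The 2 day 0 libraries were highest, days 2 and 4 lowest, and day 8 stood at -0.95 in Kmt2d+/βgeo and -1.06 in wild type. Only 37.9% of its values were whole UMIs and the annotation names 1 pseudogene of it. Rbm25, which acts at 5′ splice sites of apoptosis genes, was lower, at -0.94 in Kmt2d+/βgeo and -0.85 in wild type on day 2 and at -1.08 in Kmt2d+/βgeo and -0.94 in wild type on day 8. Rbm8a, the Y14 core of the exon junction complex, stood at -1.22 in Kmt2d+/βgeo and -0.60 in wild type on day 8. Rbm12b2, whose function is little known, was higher on day 8, at 1.00 in Kmt2d+/βgeo and 0.69 in wild type, from day 0 levels of 0.109 and 0.110. Rbm15, which guides m6A methylation, had 0.253, 0.168, 0.202 and 0.569 in the Kmt2d+/βgeo libraries and 0.160, 0.160, 0.178 and 0.225 in the wild-type libraries, with its highest library on day 8 in Kmt2d+/βgeo.

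The 18 tissue-restricted regulators had medians nearer 0 than the core, SR, hnRNP and DEAD-box groups. Over 16 compared genes they were -0.11 in Kmt2d+/βgeo and -0.09 in wild type on day 2, and -0.23 and -0.25 on day 8. Of these genes 0 and 1 passed -1 on day 8, against 13.9% and 10.9% of all genes. The group was drawn up by gene family, so it also holds ubiquitous genes such as Elavl1, while Celf4 and Elavl3 were too low to be compared. Msi1, Musashi 1, a translational regulator of neural progenitors, averaged 0.128, 0.418, 0.588 and 1.42 in the Kmt2d+/βgeo libraries and 0.0987, 0.513, 0.551 and 0.800 in the wild-type libraries. It was lowest on day 0 and highest on day 8 in both genotypes. The extreme libraries, wild type on day 0 and Kmt2d+/βgeo on day 8, were 14.4-fold apart, a span over both genotype and day. Its upward ratio was the widest of the set. Pooled-UMI log2 ratios for day 8 over day 0 were 3.40 (3.27 to 3.53) in Kmt2d+/βgeo and 3.04 (2.91 to 3.18) in wild type. Msi2, its more abundant paralogue, had 1.55, 1.48, 3.03 and 2.84 in the Kmt2d+/βgeo libraries and 1.43, 2.38, 2.74 and 2.34 in the wild-type libraries. The day 4 and day 8 libraries exceeded day 0 in both genotypes, but on day 2 the sign differed, at -0.07 in Kmt2d+/βgeo and 0.74 in wild type. The log2 balance of Msi1 over Msi2 moved from -3.60 and -3.85 on day 0 to -1.0 and -1.55 on day 8, so Msi2 stayed the larger throughout.

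Ptbp1, the repressor of neuronal exons in progenitors, averaged 0.990, 0.632, 0.678 and 0.994 in the Kmt2d+/βgeo libraries and 0.967, 0.497, 0.701 and 0.909 in the wild-type libraries. Ptbp2, its neuronal counterpart, had 0.472, 0.707, 0.692 and 0.387 in the Kmt2d+/βgeo libraries and 0.521, 0.977, 0.670 and 0.393 in the wild-type libraries. On day 2 Ptbp1 was lower, at -0.65 in Kmt2d+/βgeo and -0.96 in wild type, and Ptbp2 higher, at 0.58 in Kmt2d+/βgeo and 0.91 in wild type, whereas on day 8 Ptbp1 was near its day 0 level, at 0.01 in Kmt2d+/βgeo and -0.09 in wild type, and Ptbp2 was at -0.29 in Kmt2d+/βgeo and -0.41 in wild type. The log2 balance of Ptbp1 over Ptbp2 was 1.07, -0.16, -0.03 and 1.36 in Kmt2d+/βgeo and 0.89, -0.97, 0.06 and 1.21 in wild type, near or below 0 on days 2 and 4 and highest on day 8. The direction of this excursion was shared by the genotypes. Ptbp3 moved little, at -0.23 in Kmt2d+/βgeo and -0.09 in wild type on day 2. Ptbp1 overlaps Plppr3, which was not analysed here.

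**Figure D3:**
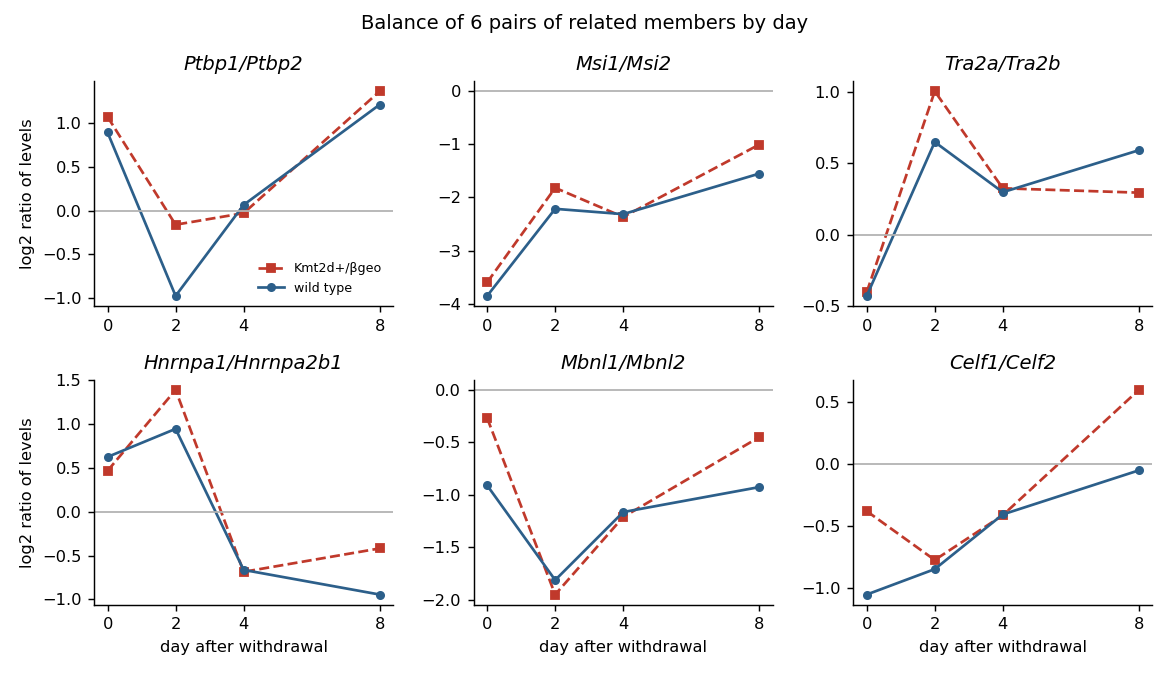
Log2 ratio of the mean normalised counts of 2 related members (y axis) on days 0, 2, 4 and 8 (x axis) for 6 pairs, with Kmt2d+/βgeo as red squares with dashed lines and wild type as blue circles with solid lines, 1 point per library. Ptbp1 over Ptbp2 dips to -0.16 and -0.97 on day 2 and stands at 1.36 and 1.21 on day 8.

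Other pairs shifted as well. Mbnl1 and Mbnl2, muscleblind proteins that favour adult splicing patterns, gave a log2 balance of -0.27, -1.95, -1.21 and -0.45 in Kmt2d+/βgeo and -0.91, -1.81, -1.17 and -0.93 in wild type, lowest on day 2 in both. Mbnl1 itself was lower on day 2, at -0.75 in Kmt2d+/βgeo and -0.60 in wild type, and Mbnl2 higher, at 0.93 in Kmt2d+/βgeo and 0.30 in wild type. Tra2a over Tra2b had its highest balance on day 2, at 1.00 and 0.65, from -0.40 and -0.43 on day 0. Only 55.9% of Tra2a values were whole UMIs and the annotation names 1 pseudogene of Tra2b, so this balance is less certain. Celf1 and Celf2, CUG-binding regulators of splicing and decay, gave -0.38, -0.77, -0.41 and 0.60 in Kmt2d+/βgeo and -1.05, -0.85, -0.41 and -0.05 in wild type, with the highest value on day 8 in both genotypes. Celf2 alone averaged 1.43, 1.39, 1.69 and 0.808 in the Kmt2d+/βgeo libraries and 2.45, 1.80, 1.58 and 1.21 in the wild-type libraries, lowest on day 8 in both.

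Qk, a STAR protein of glia and neural stem cells and the most abundant member, had 9.44, 10.6, 9.74 and 7.39 in the Kmt2d+/βgeo libraries and 10.7, 13.2, 9.06 and 5.99 in the wild-type libraries. Its day 2 libraries were the highest of each genotype and its day 8 libraries the lowest, within the limit set by its fractional UMIs. Khdrbs1, or Sam68, a signal-responsive STAR protein, was lower, at -0.84 in Kmt2d+/βgeo and -0.98 in wild type on day 2, and its paralogue Khdrbs3 stood at -0.10 in Kmt2d+/βgeo and -0.09 in wild type. Elavl1, the ubiquitous HuR that stabilises mRNA, was lower on day 8, at -0.70 in Kmt2d+/βgeo and -0.65 in wild type. Nova1, a neuronal RNA-binding regulator, had 0.286, 0.263, 0.343 and 0.496 in the Kmt2d+/βgeo libraries and 0.278, 0.277, 0.305 and 0.303 in the wild-type libraries. Its paralogue Nova2 had 0.376, 0.385, 0.472 and 0.295 in the Kmt2d+/βgeo libraries and 0.368, 0.349, 0.385 and 0.355 in the wild-type libraries. Both were present at low levels on day 0 already. Rbfox2, a regulator of neuronal and muscle exons, stayed between 0.158 and 0.222. Elavl2, Elavl4, Khdrbs2 and Rbfox1 were not analysed here.

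The later days were also compared. Against day 0, day 4 had 12 of 141 members lower and 3 higher by at least 1 in Kmt2d+/βgeo (6.61% and 14.8% of all genes), and 7 and 3 of 143 in wild type (6.6% and 11.9%). From day 2 to day 4 the member medians were 0.24 in Kmt2d+/βgeo and 0.15 in wild type (all genes 0.14 and 0.10), and 14 of 142 members were higher by at least 0.5 in both genotypes, against 10.7% of all genes, while 3 were lower (6.05%). The higher ones were Srsf3, Son, Prpf8, Hnrnpa3, Hnrnpd, Ddx23, Ddx46, Dhx9, Dhx29, Dhx32, Mbnl1, Rbm19, Rbm27 and Rbm28. From day 4 to day 8, 0 members passed 1 in both genotypes in either direction (1.84% and 1.01% of all genes were higher and lower), and 13 were lower and 3 higher by at least 0.5 (7.63% and 6.53%). From day 2 to day 8 Srsf3 was higher by at least 1 in both genotypes (5.93% of all genes), and Hnrnpa1 and the U2 snRNP protein gene Snrpb2 were lower (4.28%). The member medians from day 2 to day 8 were -0.14 in Kmt2d+/βgeo and -0.03 in wild type. From day 4 to day 8 they were -0.39 and -0.20 (all genes -0.09 and -0.06). In Kmt2d+/βgeo the step from day 0 to day 2 was -0.44 (all genes 0.05). The step into the shallow library was thus nearly as large by itself but smaller relative to all genes.

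Genes of the same pathways whose symbols fall outside the naming rule showed a like shift. Of 135 such genes listed, 115 were in the matrix, and their median was -0.32 in Kmt2d+/βgeo and -0.26 in wild type on day 2 and -0.65 in Kmt2d+/βgeo and -0.45 in wild type on day 8, with 30 and 19 of 114 lower by at least 1 on day 8 (13.9% and 10.9% of all genes) and 1 higher in each genotype (19% and 16.3%). By group, the day 8 medians were -0.67 in Kmt2d+/βgeo and -0.44 in wild type for 48 compared other spliceosome genes, -0.64 in Kmt2d+/βgeo and -0.36 in wild type for 22 genes of the exon junction complex, export and decay, and -0.64 in Kmt2d+/βgeo and -0.51 in wild type for 38 other RNA-binding proteins. The 6 kinases that phosphorylate SR proteins had medians above 0 on day 2, at 0.47 in Kmt2d+/βgeo and 0.41 in wild type, and below 0 on day 8, at -0.39 in Kmt2d+/βgeo and -0.17 in wild type. Srpk1, 1 of these 6, was lower on day 2 as well, at -0.74 in Kmt2d+/βgeo and -0.72 in wild type. With the genotypes averaged, the lowest on day 8 were Sfpq, a paraspeckle protein, at -2.37 in Kmt2d+/βgeo and -2.33 in wild type, Pabpc1, the cytoplasmic poly(A)-binding protein, at -1.56 in Kmt2d+/βgeo and -1.99 in wild type, and Ppih, a tri-snRNP cyclophilin, at -1.95 in Kmt2d+/βgeo and -1.22 in wild type. The highest on the same average were Zfp36l1, which promotes decay of AU-rich mRNAs, at 1.99 in Kmt2d+/βgeo and 1.49 in wild type, Cwc15 at 0.65 in Kmt2d+/βgeo and 0.46 in wild type and Khsrp at 0.69 in Kmt2d+/βgeo and 0.37 in wild type. Sfpq levels were 5.23, 1.92, 2.17 and 1.01 in Kmt2d+/βgeo and 6.55, 2.47, 2.13 and 1.30 in wild type, so both day 0 libraries were more than 2-fold above every later one.

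Within day 0 the levels were compared between cells with and without a Top2a UMI after thinning to 3000 UMIs, a split inside each library, which held 1625 and 2683 such cells in Kmt2d+/βgeo and 1652 and 3205 in wild type. Members were more often higher in the Top2a-positive cells, but by small amounts. In Kmt2d+/βgeo 99 of 140 compared members had a log2 ratio above 0 and the median was 0.13 (all genes 3145 of 7071 and -0.03). In wild type it was 101 of 143 and 0.11 (all genes 3266 of 7125 and -0.02). At 0.25 in both libraries, 34 of 138 members were higher and 0 lower, where 12.3% and 8.76% of all genes were. At 0.5 there were 4, against 5.14% of all genes. They were Hnrnpd at 0.58 and 0.53 in Kmt2d+/βgeo and wild type, Prpf4, a tri-snRNP protein, at 0.67 and 0.58, Snrpd1 at 0.52 and 0.55 and Srsf3 at 0.52 and 0.51. Srsf3 averaged 8.97 and 6.26 in Kmt2d+/βgeo and 7.02 and 4.93 in wild type in positive and negative cells. In the day 2 libraries it averaged 1.89 in Kmt2d+/βgeo and 1.36 in wild type. The part of dividing cells in its change over days was not tested.

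**Figure D4:**
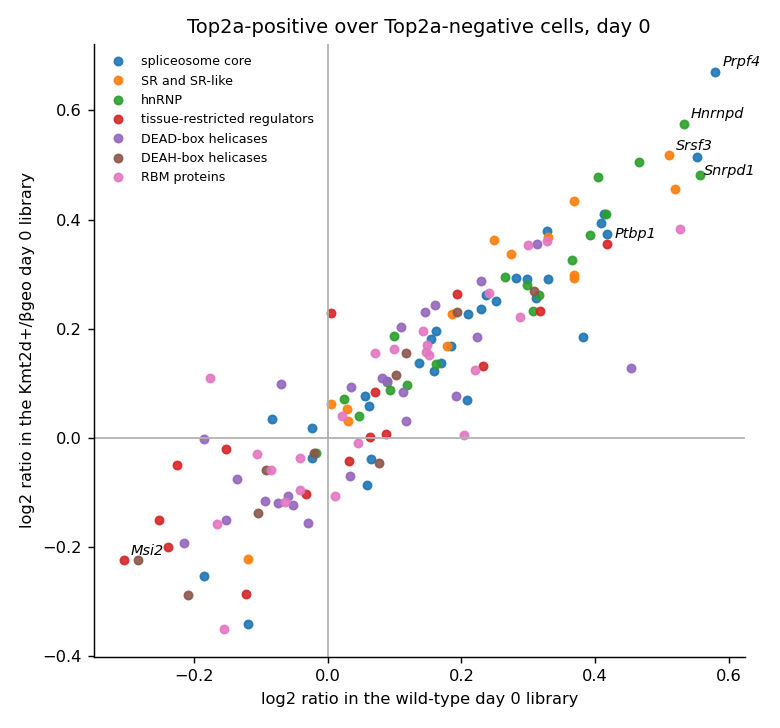
Log2 ratio of mean normalised counts in day 0 cells with over those without a Top2a UMI, 1 point per member. The x axis is the wild-type library and the y axis the Kmt2d+/βgeo library. Most points lie above 0 on both axes. Farthest out are Prpf4, at 0.67 in Kmt2d+/βgeo and 0.58 in wild type, and Hnrnpd, at 0.58 and 0.53.

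The 8 members lowest in this split, with the libraries averaged and among those compared in both, were of mixed roles. They were Msi2, at -0.22 and -0.31 in Kmt2d+/βgeo and wild type, Dhx57, at -0.22 and -0.28, Rbm24, at -0.35 and -0.16, Dhx33, at -0.29 and -0.21, Snrpn, at -0.34 and -0.12, Qk, at -0.20 and -0.24, Snrpa, at -0.25 and -0.19, and Mbnl2, at -0.28 and -0.12. Ptbp1 was higher in Top2a-positive cells, at 0.36 and 0.42, and Ptbp2 lower, at -0.15 and -0.25. Hnrnpa1, one of the most abundant members, hardly differed, at 0.09 and 0.09. Cells with an Rbfox3 UMI numbered 51 to 201 per library from day 2 on, and their member medians of log2 ratios over the other cells on days 2, 4 and 8 were 0.21, 0.14 and 0.02 in Kmt2d+/βgeo and 0.17, 0.14 and 0.10 in wild type, against 0.07, 0.05 and 0.01 and 0.03, 0.05 and 0.02 over all genes. Nova1 had ratios of 0.28, 0.30 and 0.48 in Kmt2d+/βgeo and 0.85, 0.71 and 0.57 in wild type, but the counting interval of its pooled ratio covered 0 in 4 of the 6 libraries. Nova2 had 0.69, 0.29 and 0.88 and -0.18, 0.36 and -0.03, so its sign varied. Hnrnpa1, which is not restricted to neurons, was above 0 in all 6 as well, at 0.44, 0.56 and 0.59 and 0.15, 0.41 and 0.28.

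Between the genotypes few members passed the thresholds on days 0, 2 and 4, where the day 4 labels are in doubt as said above. On day 0, 0 of 142 members were higher in Kmt2d+/βgeo and 1 lower, counted at 1 (0.674% and 0.871% of all genes), and 6 and 2 at 0.5 (3.48% and 6.08%). On day 2 it was 0 and 1 of 140 at 1 (1.68% and 1.15%) and 0 and 4 at 0.5 (5.47% and 5.28%). The day 4 libraries held 0 of 142 members past 1 in either direction (0% and 0%). On day 8, 1 was higher and 1 lower at 1 of 143 (2.06% and 2.81%), and 6 and 23 at 0.5 (10.2% and 13.1%). The member medians were 0.04, 0.00, 0.04 and -0.15 on the 4 days, where all genes had -0.04, -0.002, 0.04 and 0.01. No member passed 0.5 with 1 sign on days 0, 2 and 8 (0.965% of all genes did upward and 0.874% downward). Of 137 members compared on these days, 14 were above 0 and 24 below 0 on all 3, against 15.4% and 19.7% of all genes.

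**Figure D5:**
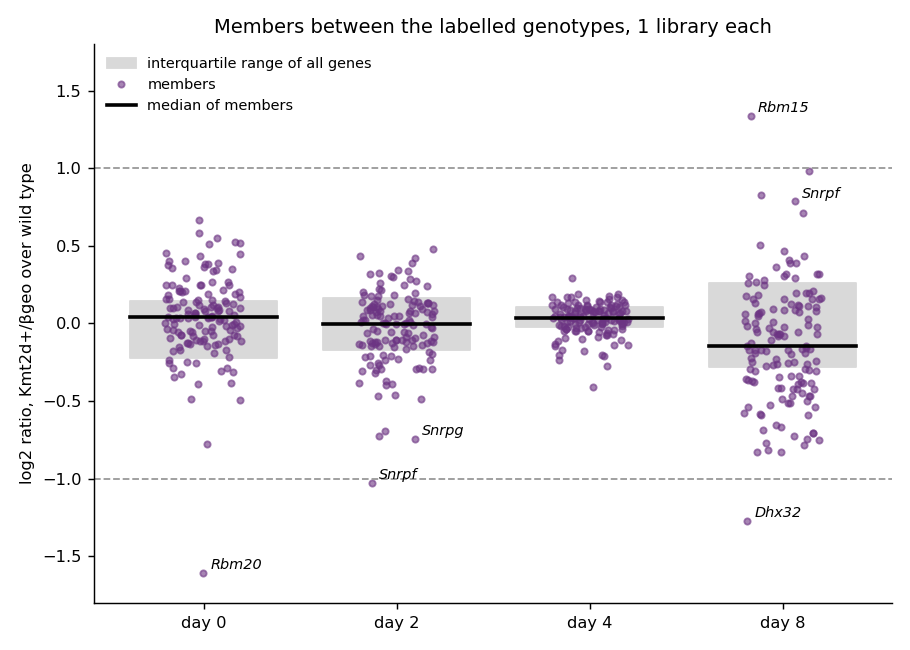
Log2 genotype ratio of mean levels, with Kmt2d+/βgeo divided by wild type (y axis), for each member on days 0, 2, 4 and 8 (x axis). Black bars are the medians of the members and grey bands the interquartile range of all genes. Points cluster near 0 on day 4 and spread most on day 8, where Rbm15 stands at 1.34 and Dhx32 at -1.27.

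The day 0 member past the threshold was Rbm20, a regulator of titin splicing, at -1.61, with levels of 0.0338, 0.0302, 0.0657 and 0.0277 in the Kmt2d+/βgeo libraries and 0.103, 0.0735, 0.0499 and 0.0414 in the wild-type libraries. It was near the minimum level in 1 library and below it elsewhere. Among the core genes, U2af1, Snrpa1 and Snrpd1 were higher in Kmt2d+/βgeo on day 0 at 0.58, 0.52 and 0.52. The 11 Snrp genes had medians of 0.26, 0.11, -0.05 and -0.30 on days 0, 2, 4 and 8 (all genes -0.04, -0.002, 0.04 and 0.01). Snrpf was the day 2 member past the threshold. Its genotype ratios on the 4 days were 0.40, -1.03, -0.20 and 0.79, and those of Snrpg were 0.34, -0.74, -0.41 and 0.50, so both changed sign between days. The Snrpf values come with an overlap of Ccdc38, which was not analysed here. Snrpe, another Sm protein, gave 0.25, -0.21, -0.21 and 0.39.

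On day 8 the members past the threshold were Rbm15, at 1.34, and Dhx32, at -1.27. After thinning they were 1.05 and -1.19, and pooled UMIs gave 1.14 (0.98 to 1.30) and -1.30 (-1.48 to -1.13). By the difference of mean log2 values neither passed 1. Dhx32 had ratios of -0.29, -0.73, 0.08 and -1.27 over the 4 days, with Kmt2d+/βgeo the lower on all but day 4. The higher side also held Khdrbs3 at 0.98, Msi1 at 0.83 and Nova1 at 0.71. Only 54.8% of Khdrbs3 values were whole UMIs, so its level is less certain. On the lower side stood Ddx39b at -0.83, Rbm42 at -0.83, Sf3b2 at -0.81, Sf3a1 at -0.78, Hnrnpc at -0.77, Sf3a3 at -0.75 and Snrpa, a U1 snRNP protein, at -0.75. The role medians on day 8, where all genes had 0.01, were -0.30 for the spliceosome core, with 8 of 31 genes at -0.5 or lower (13.1% of all genes), -0.25 for DEAD-box helicases and 0.11 for the tissue-restricted regulators. Khdrbs3, a STAR protein of the brain, averaged 1.09, 1.02, 0.570 and 0.878 in the Kmt2d+/βgeo libraries and 0.800, 0.754, 0.631 and 0.444 in the wild-type libraries, and its ratios were 0.45, 0.43, -0.15 and 0.98. Celf2 was the reverse on days 0 and 8, with ratios of -0.77, -0.37, 0.10 and -0.58. All day 8 differences set the shallowest library against one of a median of 6989 UMIs per cell, and the part of depth in them was not tested beyond the thinning. The marker sums differed between the same 2 libraries, with astrocyte markers at 101 and 238 in Kmt2d+/βgeo and wild type, progenitor markers at 72.5 and 111, neuronal markers at 4.29 and 3.77, Olig2 at 1.48 and 0.911 and markers of dividing cells at 0.973 and 1.14. Apoe, at 94.7 and 230, made up most of the astrocyte sums, and Vim, at 43.7 and 86.6, most of the progenitor sums. Their log2 genotype ratios were -1.28 and -0.99. The other astrocyte genes had -0.94 (Aldh1l1), -0.82 (S100b), -0.57 (Gja1) and 0.44 (Slc1a2). The other progenitor genes had -0.07 (Pax6), -0.05 (Fabp7), 0.05 (Sox9) and 1.76 (Hopx), so neither list moved as a whole. The part of these differences in the day 8 genotype values was not tested.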

How the data were processed

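The 8 single-cell libraries and their groups were taken from the sample labels. The deposited matrix holds log2 values per gene and cell, which the authors made by counting UMIs with alevin (Salmon 1.3.0, GRCm38), taking spliced counts as expression, removing low-quality cells and doublet outliers, dropping mitochondrial and rarely seen genes and scaling cells by library size. Seurat 3.2.2 is also named in the submitters' processing notes. The deposited cell table gives total UMIs per cell as the authors' estimated count. The log2 values were turned back into normalised counts (2 to the power of the value, minus 1). Dividing by the commonest value in a cell recovered estimated counts, and 86.8% of the values above 0 came out whole to within 0.01. These were rounded for thinning and pooled ratios, and pooled intervals are exact conditional ones at 95%. Pooled ratios weight cells by depth and may fall outside the ratio of means.

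With 1 library per group no test across groups was made. Named genes were the tissue-restricted regulators, the 10 highest means, the 8 highest and 8 lowest ratios of each main comparison, the members with 1 sign at 0.5 on 3 days between the genotypes, the paralogue pairs and the 3 highest and 3 lowest related genes on day 8 against day 0, with the genotypes averaged. Ddx23, Ddx31, Ddx46, Ddx6, Dhx15, Dhx29, Dhx9, Hnrnpdl, Hnrnpu, Prpf38b, Prpf8, Rbm19, Rbm25, Rbm27, Rbm28, Rbm41, Rbm8a, Sf3b3, Snrpb2, Srsf1, Srsf10, Srsf5, U2af2 and the related gene Srpk1 do not come from this rule and are named with their values already known. The members, role lists and related genes were chosen with earlier results of these data known. Gene positions followed the deposited gene table on GRCm38, and 149 of 150 members had the same coordinates in GENCODE M21. Of them 31 overlap another coding gene, 25 on the other strand. Promoter windows came from RefSeq. The code was tested on simulated data. Python 3.11.15, NumPy 2.4.6, SciPy 1.17.1, pandas 2.3.3 and matplotlib 3.10.9 were used. Alternatives were pooled UMIs, thinning, mean log2 values, other minimum levels, centring, leaving out Top2a-positive cells and Smc2 in place of Top2a.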

Additional observations from a re-analysis of the deposited data

Results flagged for a closer look

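Snrpf and Snrpg, which encode subunits of the Sm ring, were singled out because the sign of their genotype ratio differed between days. For Snrpf the log2 ratio of Kmt2d+/βgeo over wild type was -1.03 on day 2 and 0.79 on day 8. For Snrpg it was -0.74 on day 2 and 0.50 on day 8. The Snrpf levels behind these ratios were 0.926 and 1.88 normalised counts on day 2 and 2.49 and 1.44 on day 8, with Kmt2d+/βgeo first. The difference between the days was not tested, since each group has 1 library.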

How the results depend on the processing

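No value past a log2 ratio of 1 changed sign under the alternatives run. The genotype medians of days 2 and 4, which were near 0, did: thinning gave 0.0098 on day 2 and centring -0.0050 on day 4. Pooled UMIs and Smc2 in place of Top2a kept the counts of members past 1 within 1.5 times and the medians within 0.1. With Smc2, however, the Kmt2d+/βgeo members higher by 0.5 numbered 2 (5.90% of all genes) instead of 5 (6.19%). For the counts past 1 given below, no share of all genes is given, so they are not set against all genes. The difference of mean log2 values gave smaller shifts. By it the numbers of members higher and lower by 1 were 0 and 9 on day 2 and 0 and 14 on day 8 in Kmt2d+/βgeo, and 0 and 5 on day 2 and 0 and 3 on day 8 in wild type, with medians of -0.16, -0.30, -0.13 and -0.17. The all-gene medians were -0.01, -0.05, -0.01 and -0.01. On this scale the shares lower by 0.5 on days 2 and 8 were 16.2% of members (all genes 4.21%) and 36.1% of members (all genes 9.17%) in Kmt2d+/βgeo and 12.6% of members (all genes 3.31%) and 16% of members (all genes 5.64%) in wild type. Higher by 0.5 were 0% of members (all genes 2.80%) and 0.694% (3.46%) in Kmt2d+/βgeo. In wild type these shares were 0% (2.34%) and 1.39% (4.51%). Between the genotypes it left 0 members lower on days 0 and 2 and 0 higher or lower on day 8. At 0.5 it gave 0 higher and 1 lower on day 0 (0.309% and 0.295% of all genes). On day 2 it gave 0 and 2 (0.407% and 0.679%), and on day 8 0 and 6 (0.475% and 2.59%). A minimum mean of 0.5 left 0 higher members on day 2 and 2 on day 8 in Kmt2d+/βgeo and 1 and 2 in wild type, a Kmt2d+/βgeo day 8 median of -0.78 and 0 members lower between the genotypes on day 0. With no minimum, 1 member was higher between the genotypes on day 0, and 1 higher and 2 lower on day 2. Centring on all genes gave -0.73 for the Kmt2d+/βgeo day 8 median, and thinning gave 2 members higher between the genotypes on day 8. Leaving out Top2a-positive cells left 2 higher on day 8 in Kmt2d+/βgeo. This setting also dropped the cells too shallow to thin. In the Kmt2d+/βgeo day 8 library 2200 of 2965 cells were deep enough, and 22 of these were Top2a-positive. The same setting dropped the 1625 Top2a-positive cells of the Kmt2d+/βgeo day 0 library. The part of each kind of cell in the change was not tested. The sample number in the titles links the 4 days of a genotype and pairs no libraries between genotypes, and with 1 library for each genotype and day no replicate was left out. Genotypes could be paired by day, but a fit of genotype plus day over the 8 libraries was not run. Of the single-gene values, 348 moved by over 0.1 and 230 did not with mean log2 values. These numbers were 138 and 433 without Top2a-positive cells, 99 and 479 on thinning, 73 and 505 on centring and 66 and 592 with pooled UMIs. The Kmt2d+/βgeo day 8 library is the shallowest, and its member median against day 0 was -0.63 on thinning and -0.63 without it.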
